A study of Mus musculus with 12 samples.

Results

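A set of 10 genes of regulatory T cells and T cell checkpoints was followed through bulk RNA-seq of mouse lung: Foxp3, Ikzf2, Ctla4, Pdcd1, Lag3, Havcr2, Tigit, Icos, Tnfrsf18 and Tnfrsf4. They were chosen by GENCODE M21 symbol and are 10 of the 56262 gene identifiers in the lung count table and of the 54532 in the table of sorted cells. All mice were C57BL/6. Tumour libraries and adjacent-lung libraries came from the same 3 mice (102, 217 and 224), aged 18 months, whose T cells lack Med23, a Mediator subunit; the adjacent lung therefore carries the deletion as well, and no wild-type lung was analysed here. Alveolar type 2 (AT2) cells, the surfactant-making epithelial cells, were sorted by FACS at 6 months from 3 mice of that knockout (175, 179 and 191) and from 3 wild-type mice (176, 177 and 190). The Cre driver is not given in the sources used here.

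Regulatory T cells are CD4+ T cells that restrain other lymphocytes, and their identity is held by the transcription factor FOXP3. Inhibitory checkpoint receptors dampen a T cell after activation and stay high on chronically stimulated T cells, while co-stimulatory receptors add to the signal of the T cell receptor. Most of these receptors are found both on regulatory T cells and on activated conventional T cells, and some also on myeloid or innate lymphoid cells, so that in whole lung none of them but Foxp3 is close to specific for one cell type.

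Library depth was 65163100 to 77951014 counts in lung and 15943084 to 18913242 counts in AT2 cells. Markers went with the labels: 8 AT2 genes summed to 71558 to 223299 CPM (counts per 1000000 of the TMM-scaled library) in tumours, against 20948 to 41079 CPM in adjacent lung, and to 140543 to 143471 CPM in knockout AT2 cells, against 141349 to 178025 CPM in wild-type AT2 cells. Adjacent lung 102 stood apart from the other adjacent lungs: 14 macrophage and monocyte genes summed to 928 CPM in it and to 9115 and 8565 CPM in adjacent lungs 217 and 224, and 4 pan-leukocyte genes to 392 CPM against 1148 and 1251 CPM. Med23 itself had 18.3 to 36.8 CPM in tumours and 21 to 31.5 CPM in adjacent lung, and 42.1 to 46.5 CPM in knockout AT2 cells and 34.4 to 46.4 CPM in wild-type AT2 cells; since the deletion is in T cells, this checks no label.

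The promoters of the genes that the lung comparison turns on are shown as RefSeq lists them on GRCm38.p6, with 250 bases before and 50 bases after the transcript start. RefSeq entries were matched for 7 of the 10 genes; no entry was matched for Lag3, Icos and Ikzf2. Foxp3, Ctla4 and Havcr2 are the matched genes whose tumour libraries all lay below the adjacent ones, and Tnfrsf18 is the gene that was higher in the tumour of every mouse. The windows are chrX:7579426-7579725 for Foxp3 (the first of 2 starts listed), chr1:60908775-60909074 for Ctla4, chr11:46454681-46454980 for Havcr2 and chr4:156026072-156026371 for Tnfrsf18, all on the plus strand. Capitals mark matches, on either strand, to the core of the promoter box bound by TBP (TATAAA), to the core bound by NFAT factors (GGAAAA, which reads TTTTCC when the match is on the minus strand), to the site of RUNX factors (TGTGGT) and to that of the AP-1 dimer (TGANTCA).
Foxp3: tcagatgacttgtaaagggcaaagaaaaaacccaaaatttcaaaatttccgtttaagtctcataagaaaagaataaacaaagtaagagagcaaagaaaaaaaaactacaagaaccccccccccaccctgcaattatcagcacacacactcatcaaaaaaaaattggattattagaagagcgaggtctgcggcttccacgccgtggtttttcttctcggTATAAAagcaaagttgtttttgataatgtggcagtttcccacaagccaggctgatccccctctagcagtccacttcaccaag
Ctla4: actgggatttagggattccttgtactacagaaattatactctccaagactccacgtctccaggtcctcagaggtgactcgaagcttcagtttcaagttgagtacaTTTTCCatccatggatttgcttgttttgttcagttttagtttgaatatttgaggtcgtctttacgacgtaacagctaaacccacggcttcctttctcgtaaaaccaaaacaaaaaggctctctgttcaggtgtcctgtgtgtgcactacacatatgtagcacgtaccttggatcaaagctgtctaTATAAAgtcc
Havcr2: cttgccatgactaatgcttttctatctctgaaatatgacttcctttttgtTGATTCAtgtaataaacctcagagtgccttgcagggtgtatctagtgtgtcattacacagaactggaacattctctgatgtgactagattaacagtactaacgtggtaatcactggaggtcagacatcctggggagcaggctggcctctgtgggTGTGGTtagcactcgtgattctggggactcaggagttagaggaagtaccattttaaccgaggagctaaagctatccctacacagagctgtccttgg
Tnfrsf18: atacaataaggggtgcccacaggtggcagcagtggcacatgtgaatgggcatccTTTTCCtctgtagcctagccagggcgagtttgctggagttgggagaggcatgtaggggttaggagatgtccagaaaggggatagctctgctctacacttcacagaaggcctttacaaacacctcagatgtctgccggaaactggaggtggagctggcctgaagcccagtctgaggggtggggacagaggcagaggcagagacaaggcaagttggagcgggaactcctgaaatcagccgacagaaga
The Foxp3 window held TATAAA at bases -32 to -27 from the start and none of the other motifs. Ctla4 held the NFAT core at -145 to -140. Its TATAAA lay at 40 to 45, after the transcript start, and is a match of letters alone. Havcr2 held the RUNX motif at -46 to -41 and the AP-1 motif at -200 to -194, and Tnfrsf18 the NFAT core at -196 to -191. Of 32851 RefSeq promoter windows of the same length, 13.6% held TATAAA, 23.4% the NFAT core, 16.8% the RUNX motif and 7.81% the AP-1 motif, so each match is common; an NF-kB core motif, held by 1.63%, was in none of these 4 windows.

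Tumours were set against the adjacent lung of the same mice to describe the tumours that arose in these knockout animals. The fits had group as their only term and left out the pairing, unless the mouse is named as a replicate block. None of the 10 genes passed the test in either direction, although 9 of the 10 had a negative fold change. Foxp3, Ctla4, Havcr2 and Icos lay lower in every tumour than in every adjacent lung, and Tnfrsf18 alone was higher in tumour in all 3 mice. All 10 genes passed the low-count filter; 0 were called higher and 0 lower at an adjusted p of 0.05 (edgeR quasi-likelihood test, Benjamini-Hochberg over 19995 genes), where 2.86% of all genes were called higher and 7.18% lower. At an unadjusted p under 0.05 there was 1 gene, Havcr2, where 24.0% of all genes stood; DESeq2 gave 3 such genes, of which 1 passed adjustment, and limma-voom gave 3, of which none did. Groups did not overlap for 4 of the 10 genes, all lower in tumour, against 18.9% of all genes that were lower and 11.6% that were higher without overlap. Within mice, 6 of the 10 genes were lower in tumour in all 3, against 29.3% of all genes, and 1 was higher in all 3, against 28.2%. The median log2 fold change, tumour over adjacent, was -0.90 over the 10 genes and 0.04 over all genes tested. Values below are CPM, always given for mice 102, 217 and 224 in that order.

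**Figure D1:**
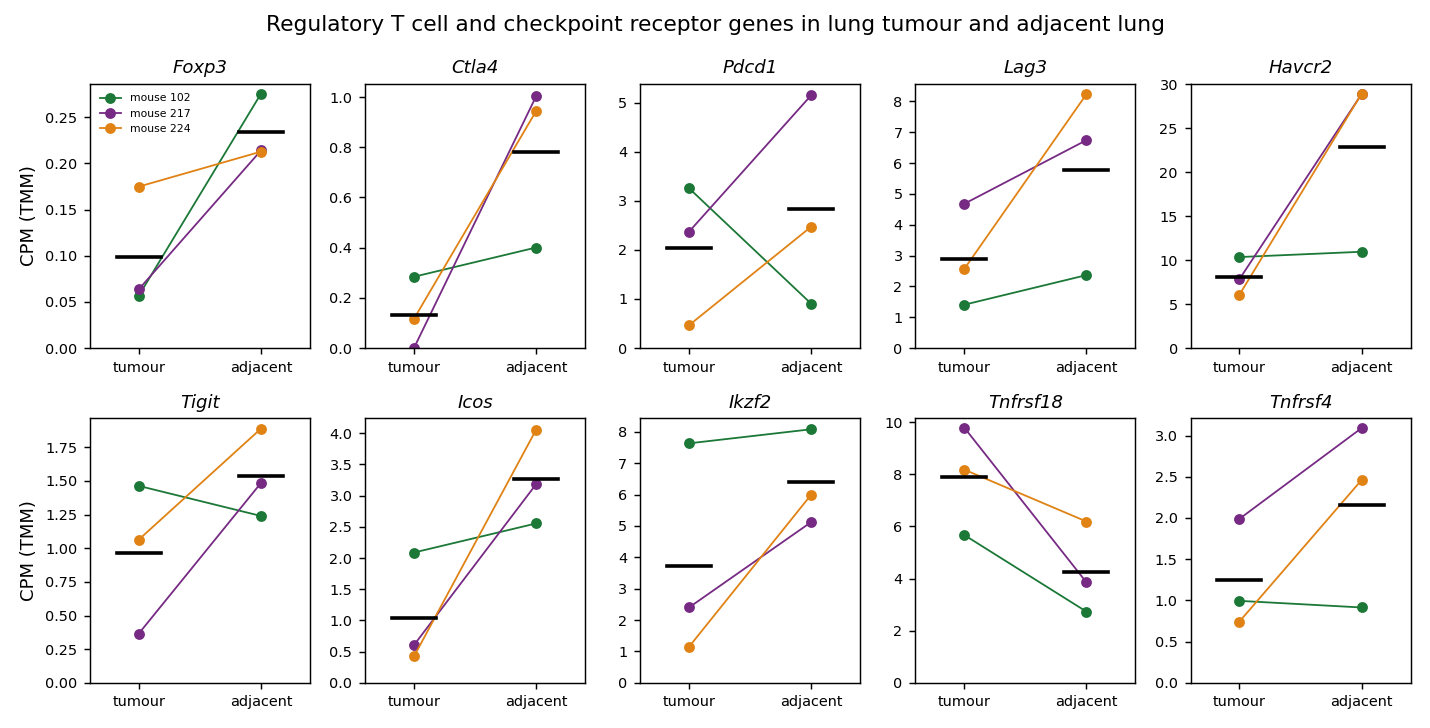
CPM (TMM-scaled, vertical axes from 0, one scale per gene) of the 10 genes in tumour (left) and adjacent lung (right); each colour and line is 1 mouse, and black bars are means of 3 libraries. For Foxp3, Ctla4, Havcr2 and Icos all 3 tumours lie below all 3 adjacent lungs, and for Tnfrsf18 all 3 lines are higher at the tumour end.

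Foxp3, the lineage factor of regulatory T cells, was near the limit of detection: it had 4, 4 and 12 counts in the tumours, against 22, 16 and 16 counts in the adjacent lungs. That is 0.0568, 0.0637 and 0.175 CPM in tumours and 0.276, 0.214 and 0.213 CPM in adjacent lung, or 0.0985 ± 0.0663 and 0.234 ± 0.0359 CPM (SD, n = 3 each). The groups did not overlap, but the 95% exact Poisson interval of tumour 224, 0.0904 to 0.306 CPM, reached over the values of all adjacent lungs, whose intervals ran from 0.122 to 0.417 CPM. Its log2 fold change was -1.23 ± 0.88 (SE) with an edgeR adjusted p of 0.475, so no difference was called. Without tumour 224 the log2 fold change was -1.93 (adjusted p = 0.438). Foxp3 lies on the X chromosome at 7573644 to 7595245 (GRCm38, plus strand), and its exons share bases with other genes: 18.6% with Flicr on the same strand, and 12.9% with Ccdc22, 8.15% with Gm36995 and 5.81% with Ppp1r3f on the opposite strand. The libraries do not mark strand and Ccdc22 had 1175 to 2033 counts in every lung library, so part of the few Foxp3 counts could not be assigned to one gene; this was not tested further.

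Ikzf2 encodes Helios, a zinc-finger factor of the Ikaros family that most thymus-derived regulatory T cells express. It had 7.63, 2.40 and 1.15 CPM in tumours, against 8.08, 5.12 and 6.00 CPM in adjacent lung, which makes 3.73 ± 3.44 and 6.40 ± 1.52 CPM (SD, n = 3 each). Each tumour was lower than the adjacent lung of its own mouse, but tumour 102 lay above 2 of the adjacent lungs. The log2 fold change was -0.78 ± 0.70 with an edgeR adjusted p of 0.584; without tumour 102 it was -1.86 (adjusted p = 0.123) and without tumour 224 it was -0.35 (adjusted p = 0.836).

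Ctla4, the inhibitory receptor that competes with CD28 for CD80 and CD86 and is constitutive on regulatory T cells, had the largest fitted difference of the 10 genes. Tumours had 20, 0 and 8 counts, against 32, 75 and 71 counts in adjacent lung, or 0.284, 0 and 0.117 CPM and 0.401, 1.003 and 0.944 CPM. Means were 0.134 ± 0.143 CPM in tumours and 0.783 ± 0.332 CPM in adjacent lung (SD, n = 3 each), and the groups did not overlap. A count of 0 in tumour 217 allows up to 0.0477 CPM (3 counts). The 0 may also be a failed count, since 4 genes are listed at 0 in exactly 1 lung library while the other 5 libraries hold at least 1000 counts each, and 2 of these, Fam177a and Slc10a3, are at 0 in tumour 217. The log2 fold change of Ctla4 was -2.53 ± 1.26 (SE), with an edgeR adjusted p of 0.280. It was -3.76 without tumour 102 (adjusted p = 0.213), -2.03 without tumour 217 (adjusted p = 0.267) and -1.81 without both libraries of mouse 217 (adjusted p = 0.413).

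Pdcd1 encodes PD-1, the receptor for PD-L1 and PD-L2. Its CPM was 3.25, 2.37 and 0.466 in tumours, against 0.902, 5.15 and 2.47 in adjacent lung. Mouse 102 had more Pdcd1 in its tumour and the other mice had less, so the groups overlapped widely, with 2.03 ± 1.43 CPM in tumours, against 2.84 ± 2.15 CPM in adjacent lung (SD, n = 3 each). The edgeR log2 fold change of -0.48 ± 0.87 (adjusted p = 0.813) turned to 0.27 without adjacent lung 217.

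Lag3, a CD4-related inhibitory receptor that binds MHC class II, had 1.41, 4.68 and 2.57 CPM in tumours, against 2.37, 6.74 and 8.23 CPM in adjacent lung. It was lower in the tumour of every mouse, yet mice differed so much that tumours 217 and 224 lay above adjacent lung 102. The means were 2.88 ± 1.66 CPM and 5.78 ± 3.05 CPM (SD, n = 3 each). The log2 fold change was -1.003 ± 0.65 (edgeR adjusted p = 0.423), and -1.62 without tumour 217 (adjusted p = 0.228). With the mouse as a replicate block, which takes out differences between mice, it was -0.98 (edgeR adjusted p = 0.159).

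Havcr2, which encodes TIM-3, a receptor of exhausted T cells that macrophages and dendritic cells also carry, came closest to the threshold. It had 10.3, 7.83 and 6.06 CPM in tumours, against 10.9, 28.9 and 28.9 CPM in adjacent lung. The groups did not overlap, but in mouse 102 the tumour and adjacent values were nearly equal. Means were 8.08 ± 2.15 CPM in tumours and 22.9 ± 10.4 CPM in adjacent lung (SD, n = 3 each), a log2 fold change of -1.50 ± 0.46 with an edgeR p of 0.0122 and an adjusted p of 0.0852. DESeq2 put the adjusted p at 0.0343, the 1 pass among 13 alternative fits, which ranged up to 0.294; without adjacent lung 102 it was 0.0560 in edgeR. The 14 macrophage and monocyte genes summed to 2620, 1949 and 1349 CPM in tumours, against 928, 9115 and 8565 CPM in adjacent lung, and 9 dendritic cell genes to 130, 98.4 and 144 CPM, against 152, 392 and 615 CPM. The adjacent lungs high in Havcr2 were therefore the 2 high in these lists, and their part in the difference was not tested. The macrophage and monocyte sum of adjacent lung 102 lay below those of all 3 tumours. Of the 14 genes of that list 12 had a negative fold change, but only 1 passed the edgeR test. This was Mertk, a receptor for apoptotic cells (17.1 ± 3.80 CPM in tumours and 78.1 ± 16.8 CPM in adjacent lung, SD, n = 3 each, adjusted p = 0.0113), which passed in all 13 alternatives.

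Tigit, an inhibitory receptor that competes with CD226 for CD155 (Pvr) and CD112 (Nectin2), had 1.46, 0.366 and 1.06 CPM in tumours, against 1.24, 1.49 and 1.89 CPM in adjacent lung. Only in mouse 102 was the tumour higher, and the groups overlapped. Means of 0.965 ± 0.555 and 1.54 ± 0.328 CPM (SD, n = 3 each) gave a log2 fold change of -0.67 ± 0.68, with an edgeR adjusted p of 0.637.

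Icos is an inducible CD28 relative whose ligand is Icosl. Its CPM was 2.09, 0.605 and 0.423 in tumours, against 2.56, 3.18 and 4.06 in adjacent lung. As with Havcr2, the groups did not overlap and mouse 102 showed the smallest difference. Means were 1.04 ± 0.914 CPM in tumours and 3.27 ± 0.754 CPM in adjacent lung (SD, n = 3 each). The log2 fold change was -1.65 ± 0.72 with an edgeR p of 0.0526 and an adjusted p of 0.216, and over the 13 alternatives it stayed negative, between -2.69, without tumour 102 (adjusted p = 0.0695), and -1.27, without tumour 224 (adjusted p = 0.405). Icos and Ctla4 lie 62.1 kb apart on chromosome 1, Ctla4 at 60887000 to 60915832 and Icos at 60977927 to 61000320, both on the plus strand.

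Tnfrsf18 encodes GITR, a co-stimulatory TNF receptor that is high on regulatory T cells and is carried by other lymphocytes too. It had 5.67, 9.79 and 8.18 CPM in tumours, against 2.73, 3.85 and 6.19 CPM in adjacent lung. Tumour was higher in each mouse, but tumour 102 lay below adjacent lung 224, so the groups overlapped. Means were 7.88 ± 2.08 CPM in tumours and 4.26 ± 1.76 CPM in adjacent lung (SD, n = 3 each), a log2 fold change of 0.89 ± 0.47 with an edgeR adjusted p of 0.311. The sign was positive in all 13 alternatives, between 0.56 and 1.26, and none passed. With the mouse as a replicate block the log2 fold change was 0.93 (edgeR adjusted p = 0.130). Its exons share 27.2% of their bases with Gm16008 on the opposite strand, which had 56, 81 and 188 counts in tumours and 91, 46 and 222 counts in adjacent lung, against 399, 615 and 561 and 218, 288 and 465 counts of Tnfrsf18.

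Tnfrsf4 encodes OX40, a co-stimulatory TNF receptor of activated and regulatory T cells, and lies 9.55 kb from Tnfrsf18 on chromosome 4, on the same strand. Despite that closeness its values went the other way in 2 mice: it had 0.995, 1.99 and 0.743 CPM in tumours, against 0.914, 3.09 and 2.46 CPM in adjacent lung. The groups overlapped, at 1.24 ± 0.659 and 2.16 ± 1.12 CPM (SD, n = 3 each), and the log2 fold change was -0.79 ± 0.69 (edgeR adjusted p = 0.567), or -1.39 without tumour 217 (adjusted p = 0.349). Neither Tnfrsf4 nor Tnfrsf18 passed, and the difference between their fold changes was not tested.

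**Figure D2:**
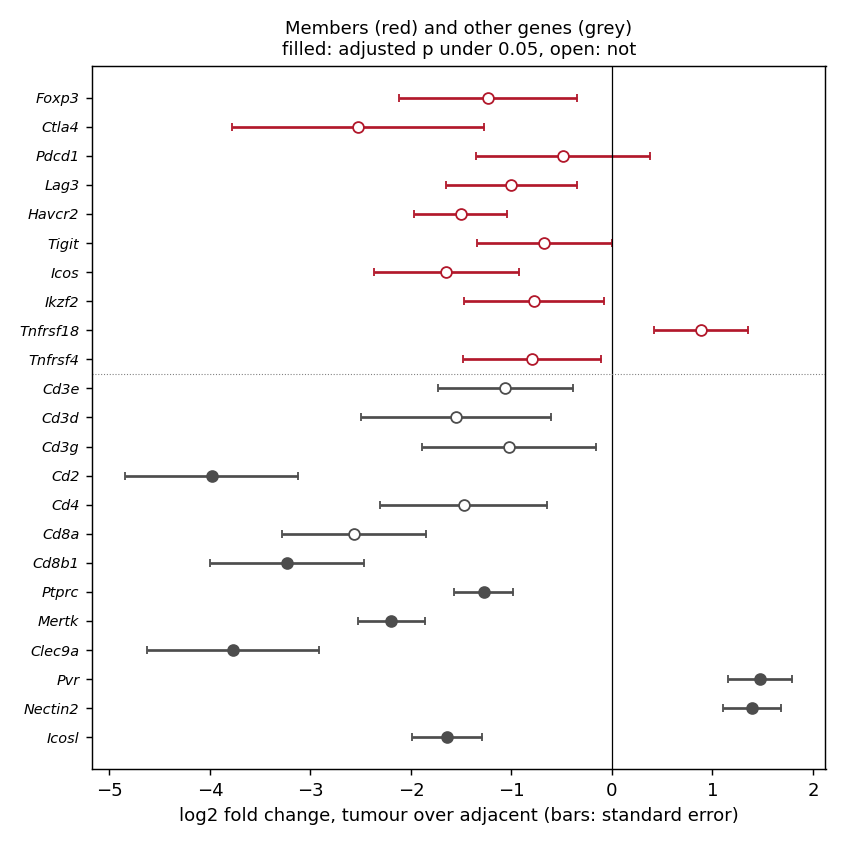
Log2 fold change, tumour over adjacent lung (horizontal axis; points with standard error bars from edgeR, n = 3 each), of the 10 genes in red and of T cell, leukocyte, myeloid and ligand genes in grey; filled points passed an adjusted p of 0.05. Every red point is open, and 9 of the 10 lie left of 0; the filled grey points are Cd2, Cd8b1, Ptprc, Mertk, Clec9a and Icosl on the left and Pvr and Nectin2 on the right.

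Genes that mark T cells in general had lower values in the tumours too. All 16 genes of a T cell list had a negative fold change, with a median of -1.62, and 2 of the 16 passed: Cd2, an adhesion receptor (1.52 ± 1.45 CPM in tumours and 24.0 ± 15.97 CPM in adjacent lung, SD, n = 3 each, edgeR adjusted p = 0.0292), and Cd8b1, a CD8 chain (0.516 ± 0.427 and 4.86 ± 1.95 CPM, adjusted p = 0.0382). Without 1 library, Cd2 still passed only when tumour 217 or adjacent lung 102 was the one left out, and Cd8b1 only without tumour 217. The list summed to 32.3, 66.0 and 17 CPM in tumours, against 74.2, 209 and 121 CPM in adjacent lung. Of the 7 genes of the T cell receptor complex 0 passed, with a median of -1.55. Ptprc, which encodes the pan-leukocyte protein CD45, passed with 42.4 ± 8.61 CPM in tumours, against 103 ± 13.8 CPM in adjacent lung (edgeR adjusted p = 0.0351), but in none of the 6 fits that leave out 1 library. Lists of other cell types were low in tumours in the same fit: 6 of 6 endothelial genes fell (median -2.63), 3 of 6 B cell genes fell (median -3.48), and of 6 fibroblast genes 0 passed and 5 had a negative fold change (median -1.26), while 2 of 8 AT2 genes rose (median 1.57). The part of these differences in the values of the 10 genes was not tested. In bulk tissue, fewer cells of a type and less RNA per cell cannot be told apart.

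To set the 10 genes against the T cell transcripts of the same library, their counts were divided by the summed counts of Cd3e, Cd3d and Cd3g, the CD3 chains. These summed to 811, 1626 and 192 counts in tumours and 1366, 4020 and 1499 counts in adjacent lung. Per 100 CD3 counts, Foxp3 had 0.493, 0.246 and 6.25 counts in tumours, against 1.61, 0.398 and 1.07 counts in adjacent lung. Tumour was lower in mice 102 and 217 and higher in mouse 224, whose tumour had the fewest CD3 counts. The log2 ratio of Foxp3 per CD3 counts differed by 0.05, tumour minus adjacent, with a two-sided exact permutation p of 1.0 (3 libraries against 3 cannot go below 0.1). That value rests on single libraries: it was -1.34 without tumour 224 and -0.52 without adjacent lung 217.

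On the same scale Ctla4 had 2.47, 0 and 4.17 counts in tumours, against 2.34, 1.87 and 4.74 counts in adjacent lung, so the groups overlapped. Havcr2 had 89.8, 30.3 and 217 counts in tumours, against 64.0, 53.7 and 145 counts in adjacent lung. Icos had 18.1, 2.34 and 15.1 counts in tumours, against 14.9, 5.92 and 20.3 counts in adjacent lung. For these genes, which did not overlap in CPM, the groups overlapped once set against CD3. Tnfrsf18 had 49.2, 37.8 and 292 counts per 100 CD3 counts in tumours, against 15.96, 7.16 and 31.0 counts in adjacent lung. The 3 tumours lay above the 3 adjacent lungs for 1 of the 10 genes on this scale, Tnfrsf18, and below them for 0, where 20.3% of all genes lay above and 4.41% below. CD3 counts were lower in the tumour of every mouse, which raises the ratio of any gene that did not fall with them, and Tnfrsf18 is also found outside T cells, so the ratio is no level per T cell. The 10 genes together had 288, 116 and 748 counts per 100 CD3 counts in tumours, against 178, 109 and 308 in adjacent lung. The log2 ratio of that sum was higher in tumour by 0.69, but by 0.01 without tumour 224 and 1.36 without tumour 217.

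**Figure D3:**
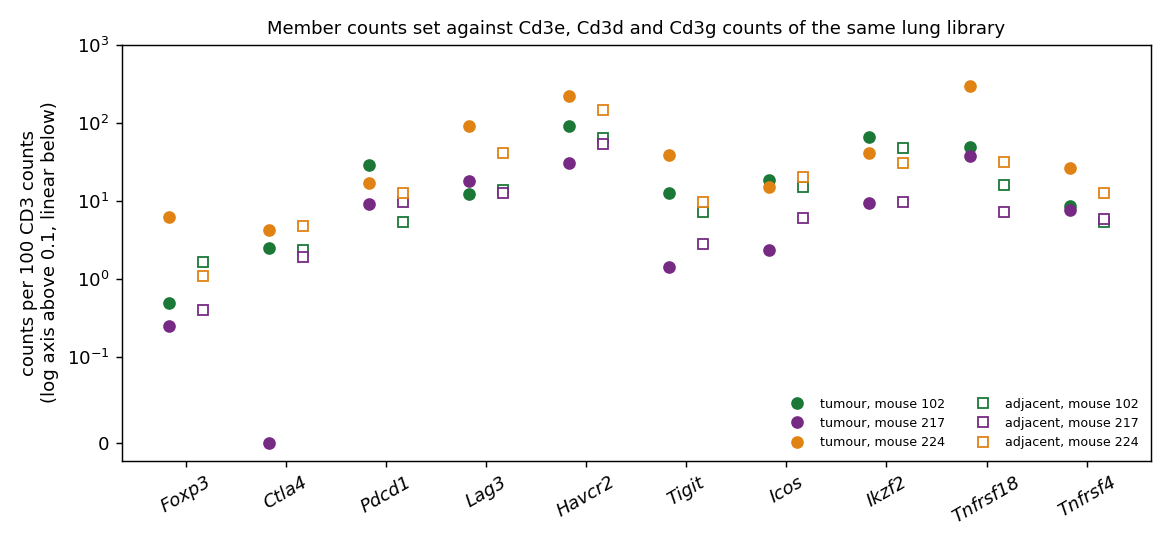
Counts of each of the 10 genes per 100 counts of Cd3e, Cd3d and Cd3g in the same library (vertical axis, logarithmic above 0.1 and linear below); filled circles are tumours, left, and open squares adjacent lungs, right, with 1 colour per mouse. The tumours lie above the adjacent lungs without overlap for Tnfrsf18, as they do on this scale for 20.3% of all genes tested, and CD3 counts are lower in each tumour than in the adjacent lung of its mouse.

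Other genes used by regulatory T cells moved in both directions. Of 22 such genes, 19 were tested, with 3 lower and 1 higher in tumours and a median log2 fold change of -0.95. Il1rl1, the IL-33 receptor chain, fell to 0.471 ± 0.281 CPM in tumours, against 4.97 ± 0.250 CPM in adjacent lung (SD, n = 3 each, edgeR adjusted p = 0.0172). Lrrc32, which encodes the TGF-beta docking protein GARP and is also expressed by endothelium, fell to 14.0 ± 8.55 CPM in tumours, against 91.8 ± 35.8 CPM (adjusted p = 0.0238), beside 6 of 6 endothelial genes that fell in the fit of all 6 libraries. Il2rb, an IL-2 receptor chain shared with NK cells, fell to 3.80 ± 1.84 CPM in tumours, against 16.5 ± 3.84 CPM in adjacent lung (adjusted p = 0.0340), beside 4 of 7 NK cell genes that fell. Areg, the growth factor amphiregulin, which epithelium makes as well, rose to 59.4 ± 38.7 CPM in tumours, against 14.8 ± 2.34 CPM in adjacent lung (adjusted p = 0.0398). When each library was left out in turn, Il2rb passed in no fit, Areg and Il1rl1 only in the one without tumour 217, and Lrrc32 only without tumour 217 or adjacent lung 217. Il2ra (CD25), a defining surface marker of regulatory T cells, did not pass, having 3.08 ± 1.57 CPM in tumours, against 3.63 ± 0.918 CPM in adjacent lung (edgeR adjusted p = 0.865), and Il10 was at 0 counts in the 3 tumours together, against 34 counts in the adjacent lungs, and was not tested.

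Genes of type 2 innate lymphoid cells, which share Icos, Il1rl1 and Il2ra with regulatory T cells, include Gata3, which fell to 0.741 ± 0.331 CPM in tumours, against 10.6 ± 0.962 CPM in adjacent lung (SD, n = 3 each, edgeR adjusted p = 0.00871) and passed in all 13 alternatives. The 10 genes of that list summed to 83.9, 51.7 and 42.1 CPM in tumours, against 117, 64.1 and 70.4 CPM in adjacent lung, and 8 NK cell genes to 1.65, 1.70 and 1.97 CPM, against 20.7, 14.8 and 15.3 CPM. The part of these cells in the values of Icos, Tnfrsf18 and Lag3 was not tested.

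Ligands of the receptors among the 10 genes split by gene. Of 15 ligands tested, 2 rose, 1 fell and the median log2 fold change was -0.21. Both that rose bind TIGIT: Pvr had 124 ± 17.1 CPM in tumours, against 44.7 ± 13.4 CPM in adjacent lung (log2 fold change 1.47 ± 0.32, edgeR adjusted p = 0.0304), and Nectin2 had 216 ± 22.7 CPM, against 82.2 ± 12.3 CPM (1.39 ± 0.28, adjusted p = 0.0251; SD, n = 3 each). In the same comparison the 8 AT2 genes summed to 71558 to 223299 CPM in tumours, against 20948 to 41079 CPM in adjacent lung, and 2 of the 8 rose. Sorted AT2 cells had 70.1 ± 1.08 CPM of Pvr in knockout and 67.7 ± 3.93 CPM in wild-type cells, and 207 ± 4.80 and 214 ± 27.9 CPM of Nectin2 (SD, n = 3 each); the part of AT2 RNA in these rises was not tested. The receptor Tigit had a negative fold change that did not pass. Icosl, the ligand of ICOS, fell to 9.64 ± 2.73 CPM in tumours, against 30.05 ± 6.22 CPM in adjacent lung (-1.64 ± 0.35, adjusted p = 0.0277), so receptor and ligand were both at lower values, of which that of Icos did not pass. Each of the 3 ligand calls held in 1 of the 6 fits that leave out a library: Nectin2 and Icosl without tumour 217, and Pvr without adjacent lung 102. Cd274, which encodes the PD-1 ligand PD-L1, had 19.1 ± 6.05 CPM in tumours, against 59.5 ± 34.4 CPM in adjacent lung, and did not pass (adjusted p = 0.105).

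Among 17 other inhibitory receptors and exhaustion genes, 3 fell and 1 rose. Tox, a nuclear factor of exhausted T cells, rose to 10.9 ± 1.96 CPM in tumours, against 2.45 ± 0.268 CPM in adjacent lung (SD, n = 3 each, edgeR adjusted p = 0.0178), while Pdcd1, Lag3, Tigit and Havcr2 had negative fold changes that did not pass. Tox was also at 4.05 ± 0.339 CPM in knockout and 3.85 ± 1.03 CPM in wild-type AT2 cells, which held 3 to 10 CD3 counts, and the summed AT2 genes were higher in the tumours; the part of epithelial RNA in the rise was not tested. Tbx21 (T-bet), Cd244a (2B4) and Vsir (VISTA) fell. The call of Tox held without tumour 217 or tumour 224 and was lost without each of the other libraries. That of Tbx21 held only without tumour 217, that of Vsir only without tumour 102, and that of Cd244a without tumour 217 or adjacent lung 102. Of 10 other co-stimulatory receptors 1 fell, Cd2.

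Compared per transcript length (TPM, from counts and the union of exons), the genes did not stand in the same order in tumour and adjacent lung. In tumours Tnfrsf18 led with 10.9 ± 2.92 TPM (SD, n = 3), followed by Havcr2 with 6.56 ± 2.90 TPM, and in adjacent lung Havcr2 led with 20.5 ± 10.1 TPM, followed by Tnfrsf18 with 7.12 ± 4.10 TPM. In both tissues Lag3 and Tigit came next and Ctla4 and Foxp3 last, Foxp3 at 0.0510 TPM in tumours and 0.128 TPM in adjacent lung. Most neighbours in these orders overlapped between libraries: in tumours only Havcr2 and Lag3 came apart, and in adjacent lung only Ctla4 and Foxp3. No test between genes was made.

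Sorted AT2 cells were compared between knockout and wild type at 6 months; the study's design text places these cells ahead of tumour formation, and no value here shows whether the mice had tumours. These libraries held little T cell RNA, with 9, 10 and 5 CD3 counts in knockout cells of mice 175, 179 and 191, against 4, 3 and 10 in wild-type cells of mice 176, 177 and 190. Even so, 4 of the 10 genes passed the low-count filter: Ikzf2, Tnfrsf18, Lag3 and Tnfrsf4. None of the 4 passed the edgeR test, where 0.0% of 14053 genes were called (347 genes, or 2.47%, had an unadjusted p under 0.05; DESeq2 called 1 gene and limma-voom 0). In the same order of mice, Ikzf2 had 8.06, 8.01 and 7.54 CPM in knockout cells, against 5.82, 4.82 and 7.58 CPM in wild-type cells (log2 fold change 0.37 ± 0.23, adjusted p = 0.984). That is 1533, 1460 and 2500 counts of Ikzf2 per 100 CD3 counts in knockout cells and 2475, 2800 and 1320 in wild-type cells. Lung libraries had at most 66.2. Every AT2 library also lay above every lung library for Lag3 (at least 160, against at most 91.7) and Tnfrsf4 (at least 60, against at most 26.6). So few CD3 counts raise the ratio of any gene counted in AT2 cells, and the share over all genes was not computed.

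Tnfrsf4 had 0.643, 0.659 and 0.844 CPM in knockout AT2 cells, against 0.529, 0.401 and 0.344 CPM in wild-type cells. It was the 1 of 4 tested genes whose groups did not overlap, against 4.19% of all genes that were higher and 4.11% that were lower without overlap; its log2 fold change was 0.74 ± 0.53 with an edgeR adjusted p of 0.984. Tnfrsf18 had 1.69, 1.54 and 2.53 CPM in knockout cells, against 1.47, 1.38 and 2.87 CPM in wild-type cells, and Lag3 had 1.17, 0.878 and 2.41 CPM, against 1.71, 0.860 and 1.15 CPM. Both overlapped between genotypes, with log2 fold changes of 0.01 ± 0.41 and 0.26 ± 0.49 whose signs turned in some fits that leave out 1 library (to -0.24 for Tnfrsf18 and -0.27 for Lag3, both without knockout 191).

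Foxp3 was not tested in AT2 cells, having 2, 19 and 7 counts in knockout cells, against 6, 0 and 9 counts in wild-type cells. They exceeded the CD3 counts in knockout 179, knockout 191 and wild-type 176, whereas in lung Foxp3 had at most 6.25 per 100 CD3 counts. Ccdc22, with which Foxp3 shares exon bases, is listed at 0 in all 6 AT2 libraries, as are 17 genes in all that hold at least 1000 counts in every lung library; whether reads of Ccdc22 were counted elsewhere was not tested. The other genes had few counts: Havcr2 7, 6 and 0 in knockout cells and 0, 1 and 5 in wild-type cells, Tigit 1, 5 and 0 and 0, 9 and 0, Icos 3, 0 and 2 and 1, 3 and 0, Ctla4 1, 0 and 0 and 0, 0 and 5, and Pdcd1 2, 0 and 0 and 0 in each wild-type library. At this depth 3 counts are 0.165 to 0.181 CPM in knockout cells. These genes did not pass the low-count filter, so the main edgeR fit did not test them. Per transcript length, Tnfrsf18, Lag3, Ikzf2 and Tnfrsf4 came first in that order in both genotypes, with 3.75, 2.11, 2.01 and 1.56 TPM in knockout cells and 3.44, 1.59, 1.42 and 0.831 TPM in wild-type cells. Neighbours in this order overlapped between libraries, except Ikzf2 with Tnfrsf4, and Tnfrsf4 with Tigit below it, in knockout cells.

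**Figure D4:**
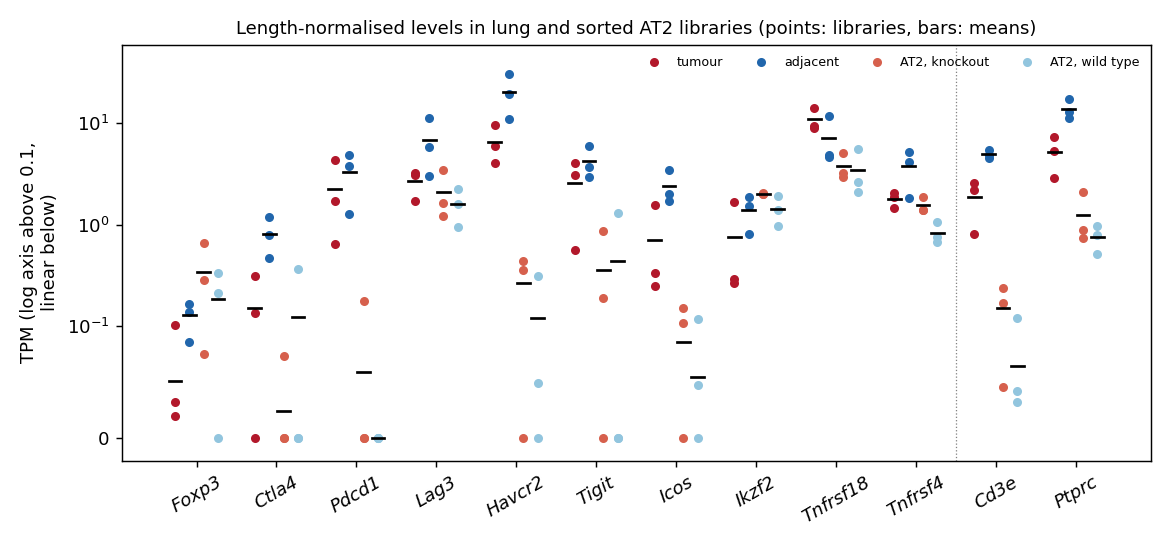
TPM (vertical axis, logarithmic above 0.1 and linear below) of the 10 genes, with Cd3e and Ptprc at the right, in tumour, adjacent lung, knockout AT2 cells and wild-type AT2 cells; points are libraries (3 per group) and bars are means. Tnfrsf18, Lag3, Ikzf2 and Tnfrsf4 have the highest means of the 10 genes in AT2 cells of both genotypes, while Ctla4, Pdcd1, Havcr2, Icos and Cd3e have lower means in AT2 cells than in tumour or adjacent lung; the 2 tables were scaled separately, so levels across them are a description.

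Across the 6 lung libraries, the genes most alike to Foxp3 and to Ctla4 were looked up among 14034 protein-coding genes by Pearson's r of log2(CPM + 0.5). Nearest to Foxp3 were Zc4h2 (r = 0.992), Mpig6b, Tex9, Trim15 and Tulp3 (r = 0.983), and nearest to Ctla4 were Selplg (r = 0.995), Rasgrp1, Itgb6, Stk10 and Ubash3b (r = 0.992). None of these neighbours is in the lists used above. These are the highest of many values over 6 libraries that come in pairs from 3 mice, and they are given as a description. Foxp3 had 4 to 22 counts per lung library, at most 0.276 CPM and so below the added 0.5. Its values of r therefore rest on few counts.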

How the data were processed

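The authors deposited 2 tables of whole-number counts per gene, not normalised, for 6 lung and 6 AT2 libraries. Per the labels' protocols, poly-A RNA was made into libraries with a NEBNext Ultra kit, which marks no strand. The submitters' processing notes name HISAT2, StringTie 1.3.3b, Trimmomatic 0.39, DESeq2 1.28.1 and FastQC, with GRCm38 (mm10); how counts were made, and with which strand setting and annotation, is not given in the sources used here. The tables were scaled and tested apart.

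Names, coordinates and exon lengths came from GENCODE M21; 1035 lung and 37 AT2 identifiers matched no name (0.0388% and 0.00383% of counts). The tests used edgeR 4.0.16 in R 4.3.3 (filterByExpr, TMM, quasi-likelihood, group as the only term, Benjamini-Hochberg, threshold 0.05), and alternatively with DESeq2 1.42.0 and limma-voom 3.58.1; the fits were tested on simulated data. Fold changes are ± SE. Poisson intervals (95%) and floors of 3 counts cover counting error only. Tumour and adjacent lung with 1 number came from the same mouse, and their deviations from group means went together (Pearson r across genes 0.273, 0.459 and 0.366 for mice 102, 217 and 224). No 2 libraries were near-identical. The named genes are the 10 members, list genes that passed (up to 4 per list, by fold change) and genes a result turns on, chosen after their values were seen. The members and lists were chosen with earlier results of these data known.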

Additional observations from a re-analysis of the deposited data

How the results depend on the processing

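No member passed in edgeR under any scaling, filter, pairing or omission tried, and DESeq2 called 1 lower (Havcr2, adjusted p = 0.0343). Fold changes kept their sign in all 13 lung alternatives for 9 of the 10 members; that of Pdcd1 reached 0.062 without both libraries of mouse 217 and ran from -1.02 to 0.27 when 1 library was left out. Over all lung genes, edgeR called 2007; DESeq2 called 3728, the fit without both libraries of mouse 217 called 847, and leaving out 1 library gave 598 to 1854. With the mouse as a replicate block 2980 genes were called and 0 members, and 3 members had an unadjusted p under 0.05. The smallest edgeR adjusted p of that fit were 0.125 for Havcr2, 0.130 for Tnfrsf18 and 0.142 for Icos. Of all calls 28.45% were higher in tumour, against 37.35% with the block and 17.6% with library totals alone, which moved the median of all genes to -0.18. Foxp3 per CD3 counts (0.05) was -0.15 against Ptprc in place of CD3 and ran from -1.34 to 0.99 when 1 library was left out. The cause of these shifts was not tested. The mean difference within mice is 0.05 by arithmetic, so the pairing was no separate check of this value. In AT2 cells, where 0 genes passed, 17 did without the filter, 1 with DESeq2 and 0 to 1 when 1 library was left out (1 without wild-type 176); there Tnfrsf18 ran from -0.24 to 0.43 and Lag3 from -0.27 to 0.56. Low counts of Foxp3 and Ctla4, exact zeros that may be failed counts (not tested), and 3 animals per group limit these comparisons.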
